A study of Mus musculus with 4 samples.

Results

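Genes for ribosome biogenesis and RNA polymerase I were followed in NIH-3T3:Per2-Luc cells, mouse embryonic fibroblasts that carry a Per2 promoter-driven luciferase, after a pulse of critical oxidative stress (cOS-pulse). The members were 37 genes picked by symbol for their known roles, and all 37 were on the array, with 58 probes among the 30175 gene names. For each gene 1 value was taken, from the probe with the brightest mean signal over the 4 arrays, and this probe was well above background on all 4 arrays for every member. The 4 one-color arrays, on 1 slide, carried RNA of control cells (0 mM H2O2, fresh medium, labelled 4 h) and of cells 4 h, 20 h and 32 h after 5 mM H2O2 for 10 min. There was 1 array per group and no replicate, so nothing was tested, and precision is limited by having 4 arrays in all. The 20 h and 32 h arrays were set against the same control as the 4 h array, so that the 3 comparisons with the control share that array, and no control array of 20 h or 32 h was analysed here.

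Ribosomes are assembled in the nucleolus. RNA polymerase I, brought to the promoter by Ubtf, the selectivity factor (which contains Taf1d) and Rrn3, makes a long precursor RNA. Small nucleolar ribonucleoproteins (snoRNPs) of the box C/D and H/ACA classes guide its methylation and pseudouridylation, and a large set of assembly factors cuts and folds it into the small and large ribosomal subunits. Proliferating fibroblasts express these genes strongly, and many of them are known targets of Myc.

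Levels are given as log2 signals less the array's own 75th percentile, so that 0 is the 75th percentile of all probes of that array. The error after a ± sign is that of the scanner software for the spots of both arrays. It was 0.20 on the log2 scale for most members and does not cover differences between cultures. Genomic positions of probes were taken from the annotation of the scanner output (mm9). Of the 39429 probes, 53.4% were well above background in the control, 59.1% at 4 h, 55.2% at 20 h and 52.7% at 32 h. The 8 fibroblast markers looked at (Col1a1, Col1a2, Col3a1, Fn1, Vim, Thy1, Pdgfrb and S100a4) were well above background on every array, with a summed scaled signal of 651 in the control, 567 at 4 h, 585 at 20 h and 596 at 32 h, the largest part from the S100a4 probe. Within this sum Pdgfrb fell at 4 h (-1.35), and Thy1 (-1.39), Col1a1 (-1.06) and Col3a1 (-1.02) fell at 20 h, each as a log2 ratio to the control. Of the markers of other cell types, Ptprc, Emr1 and Lyz2 (macrophage), Tek (endothelial) and Epcam, Cdh1 and Krt18 (epithelial) were above it on none, while Csf1r, Cd14, Kdr, Pecam1 and Krt8 were detected on all 4 arrays and Cdh5 on 3. In the same order of arrays, the summed scaled signal was 2.83, 3.26, 3.11 and 4.57 for the macrophage markers (most from Cd14), 3.22, 4.29, 4.22 and 4.13 for the endothelial (most from Kdr) and 0.569, 1.24, 0.721 and 0.687 for the epithelial (most from Krt8). Cdh5 (1.87) and Krt8 (1.17) rose at 4 h and Cd14 (1.04) at 32 h, each as a log2 ratio to the control. The part of other cells in the results was not tested.

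The comparison of 4 h with the control asked how the transcripts stood in the first hours after the pulse. At 4 h after cOS-pulse, 36 of the 37 members lay above the control, and 11 of them, or 29.7%, rose at least 2-fold. Of all 15806 genes with a measured ratio, 9556 lay above the control and 8.25% rose at least 2-fold. No member fell 2-fold at 4 h, against 8.14% of all genes. The median log2 ratio of the members was 0.76, and that of all genes 0.17. In these bulk samples, a change in the number of cells and a change in RNA per cell cannot be told apart.

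Scaling moved these values. The median ratio of all genes at 4 h shifted by -0.36 when arrays were scaled by their median, by -0.40 when scaled by spike-in RNA, by -0.28 when left unscaled, by -0.19 after quantile normalization, and by -0.12 when only probes seen on every array set the 75th percentile. Relative to it, the members' median was 0.59 higher under each of these except quantile normalization, which gave 0.62, and 31 of the 37 members lay above the median of all genes under all 5. All but quantile normalization shift every gene of an array alike, so this distance could not differ between them. Of the members, 30 were above the control under all 5 scalings and Bop1 was below it under all 5. Nop10, Polr1e, Ubtf, Pes1, Wdr12 and Noc4l changed sides. The number at least 2-fold higher was between 3 and 9. It was 3 (8.11%) with the median, where 3.70% of all genes were that much higher, and 3 with the spike-in controls, against 3.41%. Ddx21, Wdr43 and Gnl3 passed 2-fold under all 5 with their brightest probes. The other probes of Ddx21 (0.96) and Wdr43 (0.77) did not pass it with the 75th percentile.

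The comparisons of 20 h and 32 h asked how the transcripts stood later. Of the 37 members, 34 lay below the control at 20 h and 34 at 32 h, and 18 and 4 members changed sides with the scaling. By more than the spot error, 24 members were lower at 20 h and 29 at 32 h. The same held for 3573 of all 15782 measured genes at 20 h and 3482 of 15451 at 32 h. Of all genes, 7907 of 15782 lay below the control at 20 h and 7733 of 15451 at 32 h. The members' median log2 ratio was -0.31 at 20 h and -0.45 at 32 h, against -0.00104 and -0.000637 for all genes. The 20 h median turned to 0.017 without scaling, while the 32 h median was negative under all 5 scalings. At 20 h no member passed 2-fold in either direction, where 2.18% of all genes were lower and 0.729% higher. At 32 h 1 member, Dkc1, was at least 2-fold lower, which is 2.70% of the members, against 1.62% of all genes, and none was higher, against 1.08% of all genes. With a limit of 1.5-fold, 3 members (8.11%) were lower at 20 h and 8 (21.6%) at 32 h, against 5.61% and 5.18% of all genes.

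**Figure D1:**
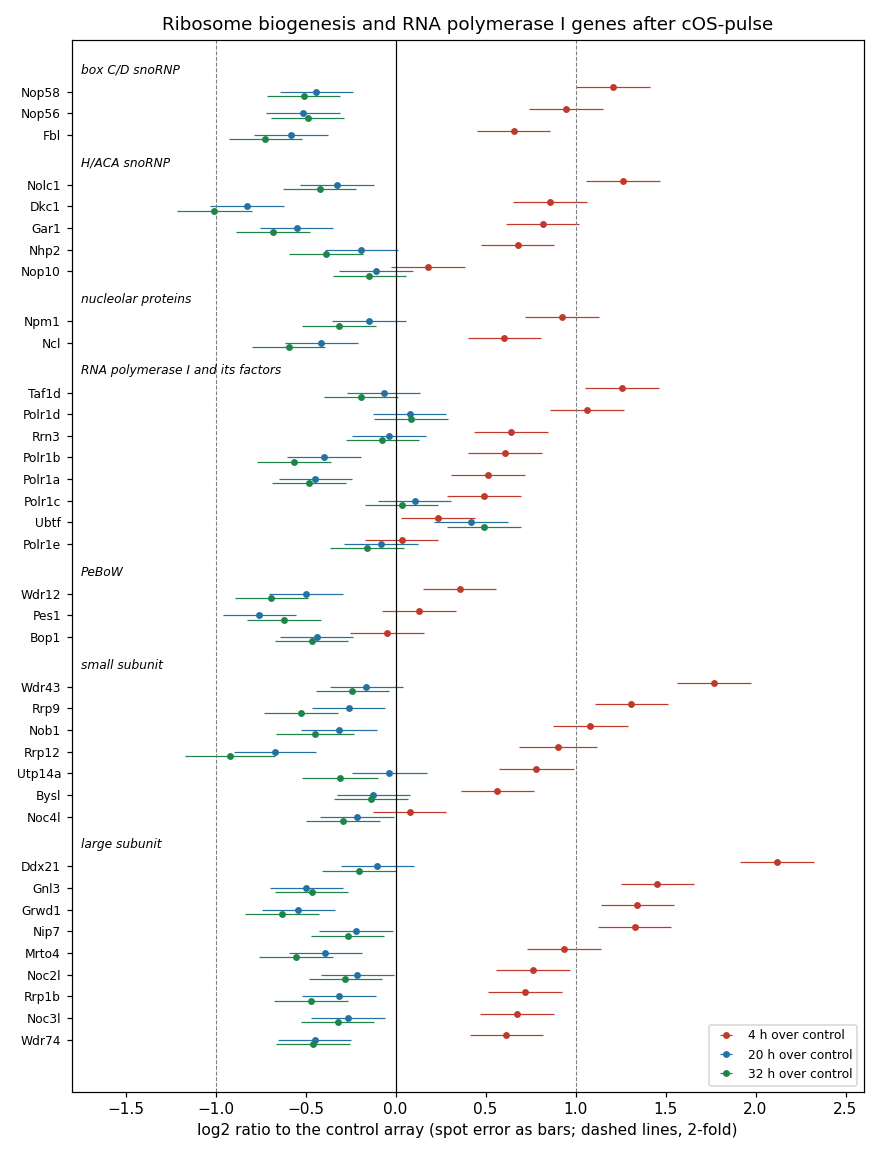
Log2 ratio of each of the 37 members to the control array at 4 h (red), 20 h (blue) and 32 h (green) after cOS-pulse, grouped by role, with 1 array per group. Points are single ratios after scaling by the 75th percentile, bars are the spot error and dashed lines mark 2-fold; 36 members lie above 0 at 4 h and 34 below 0 at each later time, and other scalings moved 6, 18 and 4 members across 0 at 4 h, 20 h and 32 h.

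With the 75th percentile, the 4 h array was the highest of the 4 for 35 of the 37 members and the lowest for none. Under the other scalings it was the highest for 29 to 33 and the lowest for 0 to 5. The exceptions with the 75th percentile were Bop1, highest in the control, and Ubtf, highest at 32 h. The 32 h array was the lowest for 31 members, and for 27 to 31 under the other scalings. These counts of highest and lowest arrays were not made for all genes. Of all genes, 9556 of 15806 lay above the control at 4 h and 7733 of 15451 below it at 32 h, with the 75th percentile. The order of 20 h and 32 h differed little. With the 75th percentile, the 20 h array was above the 32 h array in 32 members, and in 8053 of all 15643 genes. The members had a median log2 ratio of 0.079 and a range from -0.14 to 0.27. With this scaling only Rrp9 (0.26 ± 0.21) and Utp14a (0.27 ± 0.21) lay past the spot error. Of all 15643 genes, 1240 were higher and 1399 lower at 20 h by more than the spot error. Without scaling the 20 h array was above the 32 h array in all 37 members, with a median of 0.23, where the median of all genes was 0.16. No member differed 2-fold between these times, where 0.16% of all genes were higher at 20 h and 0.454% higher at 32 h.

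The box C/D snoRNP carries out the methylation of ribosomal RNA, with Fbl as the methyltransferase and Nop56 and Nop58 as its scaffold. Nop58 (chr1:59768230-59768289) had a scaled log2 level of 3.29 in the control, 4.50 at 4 h, 2.85 at 20 h and 2.78 at 32 h. At 4 h it rose by 1.21 ± 0.20 on the log2 scale, and later had -0.44 and -0.51. Nop56 (chr2:130104982-130105041) had levels of 5.28, 6.23, 4.76 and 4.79 in the same order, with a log2 ratio of 0.95 ± 0.20 at 4 h. Fbl (chr7:28964229-28964288) had levels of 3.22, 3.87, 2.64 and 2.50. Its log2 ratio was 0.66 ± 0.20 at 4 h, -0.58 at 20 h and -0.72 at 32 h. All 3 were highest at 4 h and lower at 20 h and 32 h than in the control, under each of the 5 scalings as well.

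Of the H/ACA snoRNP, which makes pseudouridine, Dkc1 is the enzyme and Nhp2, Nop10 and Gar1 are its core partners. Dkc1 (chrX:72354473-72354532) had a level of -0.24 in the control, 0.62 at 4 h, -1.06 at 20 h and -1.25 at 32 h. Among the brightest probes of the members it had the lowest ratios at both later times. Its log2 ratios were 0.86 ± 0.20 at 4 h, -0.82 ± 0.20 at 20 h and -1.01 ± 0.20 at 32 h. The last value, a 2.01-fold fall, lies within the spot error of the 2-fold limit and passed it under 1 of the 5 scalings. Gar1 (chr3:129527855-129527914) followed the same order, with levels of 4.08, 4.90, 3.53 and 3.40 and log2 ratios of 0.82, -0.55 and -0.68. Nhp2 had log2 ratios of 0.68, -0.19 and -0.39. Nop10 differed from its partners at 4 h, with a log2 ratio of 0.18 ± 0.20 that turned negative under 4 of the 5 scalings, and had -0.11 and -0.15 later. Nolc1, a chaperone of snoRNPs, rose by a log2 ratio of 1.26 ± 0.20 with its brightest probe, from 3.53 in the control to 4.79 at 4 h, and had log2 ratios of -0.32 and -0.42 later. Its other probe had -0.83 ± 0.22 at 20 h and -0.77 ± 0.23 at 32 h.

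The abundant nucleolar proteins Npm1 (nucleophosmin) and Ncl (nucleolin) take part in several steps of assembly. Npm1 (chr11:33052565-33052624) had levels of 6.51, 7.43, 6.36 and 6.19 on the control, 4 h, 20 h and 32 h arrays. Its log2 ratios were 0.92 ± 0.20, -0.15 and -0.31 with its brightest probe, the first below the 2-fold limit. Over the 5 probes of Npm1 the ratios lay between -0.58 and -0.15 at 20 h and between -0.75 and -0.31 at 32 h. Ncl (chr1:88247953-88248012) had levels of 4.79, 5.39, 4.37 and 4.19 and log2 ratios of 0.60 ± 0.20, -0.41 and -0.59. The other probe of Ncl had -0.20 ± 0.21 at 20 h and -0.12 ± 0.21 at 32 h, within the spot error.

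RNA polymerase I and its factors had a median log2 ratio of 0.56 over 8 genes at 4 h and a range from 0.033 to 1.26. Taf1d, a subunit of the selectivity factor, rose most, from a level of 0.57 in the control to 1.83 at 4 h, with 0.50 at 20 h and 0.38 at 32 h (chr9:15116035-15116094). Its log2 ratio at 4 h was 1.26 ± 0.20, and the later ones were -0.067 and -0.19. Polr1d, a subunit shared with RNA polymerase III, had levels of 3.96, 5.03, 4.04 and 4.05 and rose by a log2 ratio of 1.06 ± 0.20, with 0.078 and 0.087 later. Taf1d passed 2-fold at 4 h under 2 of the 5 other scalings and Polr1d under none. Their later ratios were within the spot error here, but 0.27 and 0.41 at 20 h without scaling. Polr1c, the partner of Polr1d in both polymerases, had log2 ratios of 0.49, 0.11 and 0.034.

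The 2 largest subunits, Polr1a and Polr1b, form the catalytic center, and both lay below the control later. Polr1a had levels of 2.02, 2.53, 1.57 and 1.54 on the control, 4 h, 20 h and 32 h arrays. Its log2 ratios were 0.51 ± 0.20, -0.45 and -0.48. Polr1b had levels of -0.13, 0.48, -0.52 and -0.69 and log2 ratios of 0.61, -0.40 and -0.56. Rrn3, which carries the polymerase to the promoter, had 0.64 ± 0.20 at 4 h, and -0.036 and -0.074 later, within the spot error. Polr1e, a subunit that pairs with Cd3eap, had 0.033, -0.081 and -0.16 with its brightest probe, within the spot error, but -0.33 at 4 h with median scaling and -0.37 with the spike-in controls. Its other probe had -0.25 ± 0.21 at 32 h. Ubtf, the factor that keeps ribosomal DNA open, was the only member whose later ratios lay above the spot error, with 0.42 and 0.49, but the probes of this gene disagreed (given further on). The median of the 8 genes was -0.051 at 20 h, positive under 3 of the 5 scalings, and -0.12 at 32 h, positive under 2. Of these, the 32 h sign with spike-in scaling rested on 1 spike-in probe and was negative without it.

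The PeBoW complex, of Pes1, Bop1 and Wdr12, matures the large subunit. Its median at 4 h was 0.13, the value of the brightest probe of Pes1, which was negative under 4 of the 5 scalings and close to the 0.17 of all genes. Bop1 (chr15:76283572-76283631) had levels of 2.37, 2.32, 1.93 and 1.91 on the control, 4 h, 20 h and 32 h arrays. It was the only member below the control at 4 h, with a log2 ratio of -0.048 ± 0.20, and had -0.44 and -0.47 later. Pes1 had levels of 2.69, 2.82, 1.94 and 2.07 with its brightest probe, and log2 ratios of 0.13, -0.76 and -0.62. Wdr12 had 0.36 ± 0.20, -0.50 and -0.69. With their brightest probes all 3 genes were below the control at 20 h and 32 h by more than the spot error, and below it under each of the 5 scalings. The other probe of Pes1 had 0.75 at 4 h, -0.028 ± 0.21 at 20 h and -0.16 ± 0.22 at 32 h, the last 2 within the spot error.

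Of the 7 genes for the small subunit, 3 rose at least 2-fold at 4 h, where 8.25% of all genes did. Wdr43 did so under all 5 other scalings, Rrp9 under 3 and Nob1 under 1. Wdr43, an early-binding factor of the small subunit processome, had levels of 2.12, 3.89, 1.96 and 1.88 (chr17:72007156-72007215). Its log2 ratio was 1.77 ± 0.20 at 4 h, a 3.41-fold rise, and -0.16 and -0.24 later, with its brightest probe. The other probe of Wdr43 had 0.77 ± 0.20 at 4 h, below the 2-fold limit, and -0.50 and -0.45 later. Rrp9, a protein of the snoRNP that starts the processing of the small subunit RNA, had levels of -0.11, 1.20, -0.37 and -0.64, and a log2 ratio of 1.31 ± 0.20 at 4 h. Nob1, the endonuclease that makes the mature end of the small subunit RNA, had levels of -1.66, -0.57, -1.97 and -2.11, and a log2 ratio of 1.08 ± 0.21. Both were below the control later, Rrp9 with -0.26 and -0.53 and Nob1 with -0.31 and -0.45.

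Rrp12, a factor for the export of pre-ribosomes, had levels of -2.09, -1.19, -2.76 and -3.02. Its log2 ratios were 0.90 ± 0.22 at 4 h, -0.67 ± 0.23 at 20 h and -0.92 at 32 h, the lowest of the members after Dkc1 at 32 h. Utp14a, a processome component, had 0.78, -0.035 and -0.31, and Bysl (bystin) 0.57, -0.12 and -0.14. Noc4l had 0.078 ± 0.20 at 4 h and was below the control under 4 of the 5 scalings.

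Of the 9 genes for the large subunit, 4 rose at least 2-fold at 4 h, where 8.25% of all genes did, and the lowest of the 9 had a log2 ratio of 0.62. Ddx21 and Gnl3 passed 2-fold under all 5 other scalings, and Nip7 and Grwd1 under 3. Ddx21, an RNA helicase of the nucleolus, had levels of 1.82 in the control, 3.94 at 4 h, 1.72 at 20 h and 1.61 at 32 h (chr10:62044862-62044921). Its log2 ratio of 2.12 ± 0.20 at 4 h, a 4.34-fold rise, was the highest among the brightest probes of the members, and the later ones were -0.10 and -0.20. Its other probe had 0.96 at 4 h, with levels of 1.98 in the control and 2.95 at 4 h. The mean that picked the brightest probe included the 4 h array, and in the control the other probe was brighter. Gnl3 (nucleostemin), a GTPase, had levels of 1.60, 3.06, 1.11 and 1.14, and rose by a log2 ratio of 1.45 ± 0.20, with -0.50 and -0.47 later. Grwd1 had levels of 1.93, 3.28, 1.39 and 1.30 and log2 ratios of 1.34, -0.54 and -0.63. Nip7 had levels of 2.91, 4.24, 2.69 and 2.64 and log2 ratios of 1.33, -0.22 and -0.27. All 4 were highest at 4 h. Gnl3, Grwd1 and Nip7 then lay below the control by more than the spot error. For Ddx21 this depended on the probe: the 20 h ratio of the brightest was within the spot error, and the other had -0.39 ± 0.20 at 20 h and -0.42 at 32 h.

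The other 5 genes of the large subunit lay between 0.62 and 0.93 at 4 h. Mrto4, a relative of the ribosomal stalk protein that holds its place during assembly, had 0.93, -0.39 and -0.55 at 4 h, 20 h and 32 h. Noc2l and Noc3l, which act together in large subunit assembly, had 0.76 and 0.67 at 4 h, -0.21 and -0.26 at 20 h, and -0.28 and -0.32 at 32 h. Rrp1b had 0.72, -0.32 and -0.47, and Wdr74 0.62, -0.45 and -0.46. The median of the 9 genes was 0.93, -0.32 and -0.46, and only the 20 h median changed sides with the scaling, to 0.016 without scaling.

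The array held several probes for 17 members, and for 16 of these at least 2 probes gave a ratio at 4 h. 9 of the 16 had probes that lay within 0.2 of each other on the log2 scale. Npm1 had 5 probes, some of them annotated to another transcript, with log2 ratios between 0.92 and 1.19. The 3 probes of Nop56 had ratios of 0.91 or more. The other probe of Polr1d (chr5:147890429-147890488), annotated to another transcript, had 1.02 beside 1.06. At 20 h and 32 h it had -0.071 and -0.10, where the brightest had 0.078 and 0.087, all within the spot error. Nip7 had 1.33 and 1.41, Grwd1 1.34 and 1.21, Mrto4 0.93 and 0.89, and Polr1e 0.033 and -0.034. No ratio was taken for the second probe of Polr1b, which no array detected.

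In 3 of the 16, or 18.8%, the probes lay at least 2-fold apart at 4 h, against 12.0% of the 3688 genes with several measured probes. Ncl had 0.60 with its brightest probe and 2.79 ± 0.20 with the other, which lies 6437 bases further along the transcribed strand (chr1:88241516-88241575) and had levels of -0.69, 2.11, -0.89 and -0.81 on the control, 4 h, 20 h and 32 h arrays. Ddx21 had 2.12 with its brightest probe and 0.96 with the other, 1545 bases downstream. Nolc1 had 1.26 and, 460 bases downstream, 0.16. Close to this limit, Wdr43 had 1.77 and, 872 bases downstream, 0.77. Polr1a (0.51 and 1.14) and Pes1 (0.13 and 0.75) had their higher ratio with the other probe, which lies upstream. So the sizes for Ddx21, Nolc1, Wdr43 and Ncl depended on the probe, while each measured probe of these genes was above the control at 4 h with the 75th percentile. For the second probe of Nolc1 the ratio (0.16 ± 0.22) was within the spot error. It was also smaller than the shifts of all genes without scaling (-0.28), with the median (-0.36) and with spike-in RNA (-0.40).

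**Figure D2:**
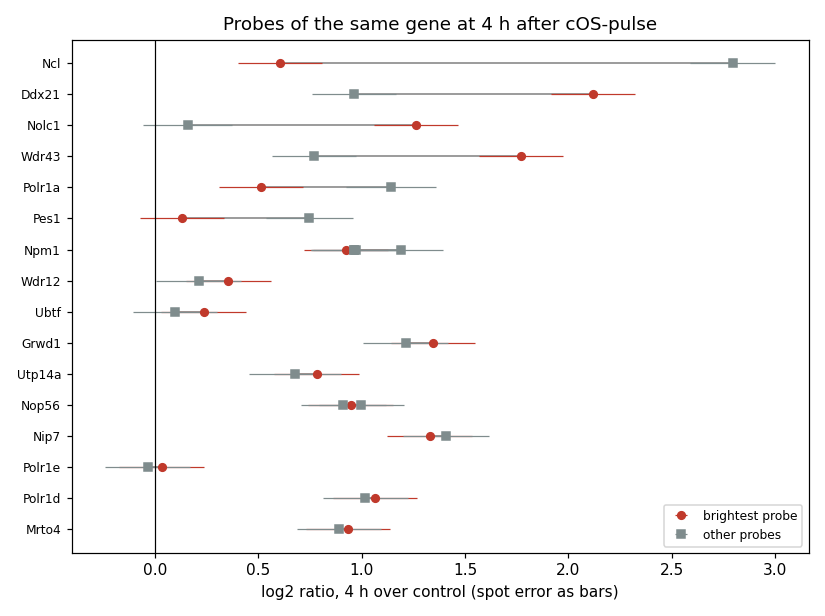
Log2 ratio at 4 h over the control for each measured probe of the 16 members with at least 2 of them, with spot errors as bars, the brightest probe in red and the others in gray. Ncl, Ddx21 and Nolc1 have probes at least 2-fold apart, while 9 of the 16 genes have probes within 0.2 of each other.

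For Ubtf the probes differed in direction at the later times. The brightest (chr11:102166995-102167054) had levels of 5.22, 5.46, 5.64 and 5.71 on the control, 4 h, 20 h and 32 h arrays, and log2 ratios of 0.24, 0.42 and 0.49. The other, upstream of it (chr11:102167265-102167324), had levels of -0.055, 0.042, -0.71 and -0.71, and log2 ratios of 0.097, -0.65 and -0.66. With the second probe, Ubtf would lie below the control at 20 h and 32 h like most members. The brightest probe begins with a run of 29 alternating T and G, and none of the other member probes has such a run of 20 or more bases. Whether other transcripts with this repeat add to its signal was not tested.

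Some probes of 60 bases have a longer annotated position, so that they match RNA in which both sides of a gap in the genome are joined. Apart from a probe of Nop56 with a span of 61 bases, there were 8 such probes, with spans from 145 to 1193 bases, and 5 of them are the brightest probe of their gene. 6 are shown, as their match needs joined RNA:
Rrp9, chr9:106386845-106387461, plus strand: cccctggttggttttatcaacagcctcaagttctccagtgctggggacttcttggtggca
Nob1, chr8:109940113-109940915, minus strand: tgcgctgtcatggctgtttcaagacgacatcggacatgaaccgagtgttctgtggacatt
Rrp12, chr19:41945749-41945925, minus strand: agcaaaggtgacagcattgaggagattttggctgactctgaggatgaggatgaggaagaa
Wdr74, chr19:8812462-8812679, plus strand: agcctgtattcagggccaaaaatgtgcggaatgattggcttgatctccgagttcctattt
Polr1c, chr17:46381120-46381264, minus strand: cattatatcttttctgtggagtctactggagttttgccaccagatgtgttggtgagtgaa
Npm1, chr11:33052849-33054041, minus strand: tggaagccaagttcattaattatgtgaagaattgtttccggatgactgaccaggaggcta
At 4 h the log2 ratios of these probes were 1.31 for Rrp9, 1.08 for Nob1, 0.90 for Rrp12, 0.62 for Wdr74, 0.49 for Polr1c and 0.96 for this probe of Npm1, and those not shown had 0.91 (Nop56) and 0.97 (Npm1). All 8 were above the control by more than the spot error, as were 7408 of all 15806 genes with a measured ratio. The probes of Wdr74 and Polr1c are printed 10 times on the array, and the SD of their single-spot log2 ratios at 4 h was 0.064 over 9 unflagged spot positions for Wdr74 and 0.026 over 8 for Polr1c, well below the stated spot error.

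The promoters of 33 members are in the RefSeq table used (GRCm38.p6, 250 bases before to 50 after the start). Fbl, Npm1, Bop1 and Rrp12 had no entry. The E-box CACGTG, the letters bound by Myc and Max, which reads the same on both strands, was found in 4 of the 33 genes (12.1%), against 8.09% of the 27025 genes in the table. They are shown with 30 bases each, the E-box in capitals, as the matches found in the promoters of all members with an entry:
Rrn3, first site, chr16:13780472-13780501, plus strand: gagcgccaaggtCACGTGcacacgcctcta
Rrn3, other site, chr16:13780639-13780668, plus strand: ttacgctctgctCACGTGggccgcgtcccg
Pes1, chr11:3963965-3963994, plus strand: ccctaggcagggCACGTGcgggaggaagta
Wdr43, chr17:71616220-71616249, plus strand: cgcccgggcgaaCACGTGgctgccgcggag
Grwd1, chr7:45830740-45830769, minus strand: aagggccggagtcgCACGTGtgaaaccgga
The sites of Rrn3 begin 215 and 48 bases before the start, and the others 3, 18 and 35 bases into the transcript, counting its first base as 1. At 4 h these genes had log2 ratios of 0.64 (Rrn3), 0.13 (Pes1), 1.77 (Wdr43) and 1.34 (Grwd1). A match of letters is a description of the sequence and says nothing about binding.

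Other genes of the same pathway were taken from 8 lists of 181 genes. The list of the small subunit processome and maturation had a median log2 ratio of 0.67 at 4 h over 47 measured genes, of which 9 (19.1%, against 8.25% of all genes) rose at least 2-fold and none fell. Under the 5 other scalings the number was between 1 and 6, and with the spike-in controls the 1 gene (2.13%) was below the 3.41% of all genes. Riok2, a kinase of late small subunit maturation, rose by a log2 ratio of 1.85 ± 0.20. Tsr1 had 1.38 and Cirh1a 1.33, and the lowest were Wdr46 (-0.08), Tbl3 (-0.25) and Ddx49 (-0.35). At 20 h and 32 h the median was -0.23 and -0.21, the first turning positive without scaling, and no gene passed 2-fold. Nop9 and Tsr3 were not on the array.

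The list of large subunit assembly and export had a median log2 ratio of 0.78 at 4 h, with 14 of 45 genes (31.1%, against 8.25% of all genes) at least 2-fold higher and none lower. Under the 5 other scalings the number was between 2 and 8, and the 2 genes (4.44%) with the median or the spike-in controls were near the 3.70% and 3.41% of all genes. Zfp593 rose by a log2 ratio of 1.46 ± 0.20, Sbds, which helps to release the factor that keeps the subunits apart, by 1.41, and Rsl1d1 by 1.32. The lowest were Las1l (-0.31), Ddx51 (-0.33) and Pelp1 (-0.53). At 20 h and 32 h the median was -0.25, positive only without scaling, and -0.32, with no gene past 2-fold.

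The polymerase lists did not share these values. The other and shared subunits of RNA polymerase I had a median log2 ratio of 0.064 at 4 h over 12 genes, which was negative under all 5 scalings. Of these, 1 gene (8.33%, against 8.25% of all genes), Twistnb (1.04 ± 0.20), was at least 2-fold higher, and none was under the 5 other scalings. Cd3eap had 0.90 ± 0.20 and Taf1a 0.53, and the lowest were Znrd1 (-0.32), Polr2e (-0.41) and Taf1b (-0.76 ± 0.37). RNA polymerase III and its factors had -0.095 over 22 genes, with 2 at least 2-fold higher (Gtf3c4, 1.34, and Bdp1, 1.16) and 2 lower (Gtf3c5, -1.52, and Gtf3c6, -1.32). This is 9.09% in each direction, near the 8.25% and 8.14% of all genes. Under the 5 other scalings 0 to 2 genes of this list were higher and 2 to 5 lower. Polr3f had 0.94 and Polr3gl -0.94. The RNA polymerase II subunits had 0.15 over 8 genes, negative under 4 of the 5 scalings, from 0.67 for Polr2d, 0.55 for Polr2m and 0.45 for Polr2c down to -0.08 for Polr2b, -0.21 for Polr2j and -0.58 for Polr2i.

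At 20 h and 32 h the medians of these lists were -0.15 and -0.20 (other RNA polymerase I subunits), -0.064 and -0.045 (RNA polymerase III), and -0.039 and -0.056 (RNA polymerase II), with no gene past 2-fold. Each of these signs turned with spike-in scaling and without scaling, and those of RNA polymerase III and II at 20 h also with median scaling, except that the RNA polymerase I list at 32 h stayed negative under all 5. Without the spike-in probe that stood apart from the other 7, a setting chosen after the data were seen, spike-in scaling turned only the signs of RNA polymerase III and II at 20 h. The RNA exosome, which trims the precursor RNA, had a median of 0.33 at 4 h over 13 genes, negative when scaled by the median or by spike-in RNA, and no gene passed 2-fold. Mphosph6 had 0.68, Dis3 0.60 and Exosc6 0.58, and Exosc8 -0.57, Exosc5 -0.67 and Exosc4 -0.93. The factors that assemble snoRNPs had 0.24 over 10 genes, negative under 3 of the 5 scalings, with 1 gene (10%, against 8.25% of all genes), Nufip1 (1.23), at least 2-fold higher and none under 3 of the 5 scalings, Naf1 at 0.86 and Shq1 at 0.57, and with Znhit6 at 0.02, Rpap3 at -0.33 and Pih1d1 at -0.69. At 20 h and 32 h these lists had -0.12 and -0.12 (exosome) and -0.22 and -0.32 (snoRNP assembly), the first 2 turning positive with spike-in or no scaling and the -0.22 without scaling. Without the spike-in probe that stood apart, both exosome medians stayed negative.

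**Figure D3:**
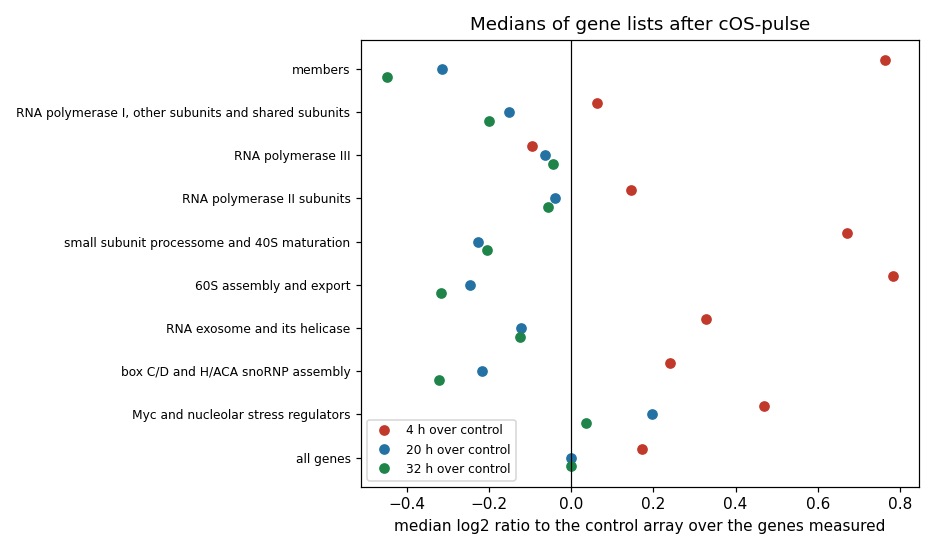
Median log2 ratio to the control array at 4 h (red), 20 h (blue) and 32 h (green) for the members, the 8 lists and all genes with a measured ratio, scaled by the 75th percentile. At 4 h the members (0.76) and the lists for the large (0.78) and small (0.67) subunit lie furthest to the right, and RNA polymerase III (-0.095) lies left of 0; under other scalings the medians of both other polymerase lists, the exosome and snoRNP assembly at 4 h and of most groups at 20 h cross 0.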

How the data were processed

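Total RNA was labelled with Cy3 and hybridized to Agilent Mouse GE 4x44K v2 arrays. The authors deposited the intensity of each spot from Agilent Feature Extraction 10.7.3.1, with background and a spatial trend subtracted, and a table of the same intensity values divided by 1 constant per array (within 0.000122% over 44397 spots, linear scale, medians 0.0590, 0.0757, 0.0546 and 0.0587 for the control, 4 h, 20 h and 32 h). The constants lay near the 75th percentile, and their formula is not given in the sources used here.

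These intensities were put on a log2 scale and the mean over unflagged spots was taken for 39429 probes (125 to 161 outlier spots per array were left out, none was saturated), less the array's 75th percentile. Detection of a probe needed 50% or more of its spots well above background, and a ratio as measured where both arrays detected it. A gene counted as risen or fallen at 2-fold. Groups were those of the sample labels, and with 1 array per group no test was run. SAM, which the study names, needs more than 1 array per group and was not run.

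The members and lists were chosen with earlier results of these data known. All members are named, and from each list the 3 highest and 3 lowest at 4 h, and at 20 h and 32 h those past 2-fold, except that 1 gene is not reported here. Alternatives were 5 other scalings, normexp background correction (offset 50), the median over the probes of a gene, no detection filter, the deposited table, and limits of 1.5-fold and 3-fold. Spike-in scaling without 1 of 8 probes was added after the data were seen. The steps were tested on simulated data. Python 3.11.15, numpy 2.4.6, pandas 2.3.3, matplotlib 3.10.9, R 4.3.3 and limma 3.58.1 were used.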

Additional observations from a re-analysis of the deposited data

Results flagged for a closer look

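Of the 37 members, 33 lay above the control at 4 h and below it at 20 h and 32 h. This pattern was not counted over all genes. Bop1 was below the control at each time, and Polr1c and the brightest probes of Polr1d and Ubtf were above it at each time. The other probe of Polr1d had -0.071 at 20 h and -0.10 at 32 h, within the spot error. Other scalings moved 6, 18 and 4 members across the control at 4 h, 20 h and 32 h. The median log2 ratio of all members to the control was 0.76 at 4 h, -0.31 at 20 h and -0.45 at 32 h. The change of side between 4 h and the later times is what marked these values, and the 20 h median turned positive without scaling. The difference between the times was not tested, since each rests on 1 array and all share the same control. The control carries a label of 4 h, so that time in culture and time after the pulse cannot be told apart at 20 h and 32 h.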

How the results depend on the processing

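Changes of a median beyond the spot error of 1 ratio (0.20), and of a count beyond 1.5 times, are given here; the cause was not tested except where stated. The members' median log2 ratio at 4 h was 0.76, and 0.40 with median scaling, 0.36 with the spike-in controls, 0.37 with the spike-in controls without the probe furthest from the others (chosen after seeing the data) and 0.48 without scaling. It stayed above 0 under all 10 alternatives. The 20 h median of -0.31 turned to 0.017 without scaling and stayed negative under the other alternatives. It was -0.11 with the spike-in controls and -0.21 with median scaling. The 32 h median and the median of 20 h over 32 h kept their sign and moved by less than the spot error in every alternative.

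Of the members, 11 rose at least 2-fold at 4 h, and 3 did so with median scaling (3.70% of all genes), 3 with the spike-in controls (3.41%) and 6 without scaling (4.45%), while 27 passed 1.5-fold (21.1% of all genes) and 2 passed 3-fold (2.47%). The number at least 2-fold lower at 20 h was 0, and 3 passed 1.5-fold. At 32 h it was 1 (Dkc1), and 0 with median, quantile, spike-in or no scaling, normexp, the deposited table or a limit of 3-fold, while 8 passed 1.5-fold. Subtracting another constant from an array moves every gene of that array by the same amount, so the members' distance from the median of all genes was 0.59 at 4 h under each scaling by a constant. Without the detection filter this distance was 0.67 at 4 h, and -0.14 at 20 h against -0.31 with the filter. Of all genes, 14.2% were then at least 2-fold higher at 4 h and 5.80% lower at 20 h, against 8.25% and 2.18%. The 52.7% to 59.1% of probes well above background limit what can be measured, but every member was above it.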

Other observations

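The list of Myc and nucleolar stress regulators had a median log2 ratio of 0.47 at 4 h over 17 measured genes, with 4 at least 2-fold higher (23.5%, against 8.25% of all genes) and 1 lower (5.88%, against 8.14%), and 0.20 at 20 h and 0.036 at 32 h. Under the 5 other scalings the median was between 0.066 and 0.45 at 4 h, between 0.18 and 0.53 at 20 h and between 0.027 and 0.21 at 32 h. Cdkn1a, an inhibitor of cyclin-dependent kinases and a p53 target, had scaled log2 levels of 0.40, 3.97, 1.70 and 1.72 on the control, 4 h, 20 h and 32 h arrays, and log2 ratios of 3.57 ± 0.20, 1.30 and 1.32. Mdm2, the ubiquitin ligase of p53, had 1.61, 0.44 and 0.33. Mxd1, a repressor that competes with Myc for Max, had 1.53, 0.82 and 0.88. At 4 h its relatives Mxd3 and Mxd4 had -1.12 and -0.37. Myc itself, named after its values were seen, had 0.43 at 4 h, -0.63 at 20 h and -0.71 at 32 h. Mycn, Mxi1 and Cdkn2a had no measured ratio at 4 h.

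The spike-in probe that stood apart had log2 signals of 0.16, -0.74 and -1.05 relative to the control at 4 h, 20 h and 32 h before scaling, while the mean of the other 7 was 0.12, 0.26 and 0.17.

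With 1 array per group, culture, array and time cannot be told apart, and the later arrays have no control of their own hour. The scaling sets how far above or below the control each member lies. The files hold probe positions but no exon map of mm9, so it was not determined whether the second probe of Ncl, Ddx21, Nolc1, Wdr43, Polr1a or Pes1 lies in an exon, an intron or downstream of the gene.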
